A study of Homo sapiens with 12 samples.

Results

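The genes described here encode the protein parts of the cytosolic ribosome. They were chosen by name, with no measured value used: a gene had to be annotated as protein-coding and to carry the symbol RPSA, RPLP0, RPLP1, RPLP2, or RPL or RPS with a number of up to 2 digits and at most 1 of the letters A, X or L. This gave 82 of 57773 genes, 49 with names of the large (60S) subunit and 33 with names of the small (40S) subunit. Of these, 81 could be paired with transcripts and 80 were abundant enough to be tested among 19093 genes, 48 of the large and 32 of the small subunit. RPL10L, a testis-enriched copy of RPL10, was not tested because no library held more than 3 estimated counts for it.

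The RNA came from U87, a human glioblastoma line established long ago and grown here with serum, in its parental form and as a derivative with acquired resistance to JQ1. Each line was treated for 24 h with DMSO (the solvent), 1000 nM JQ1 or 1000 nM dBET6. The 6 groups were therefore parental DMSO, parental JQ1, parental dBET6, resistant DMSO, resistant JQ1 and resistant dBET6, with 2 polyA RNA libraries each and 12 in all. The study names 1 resistant line, so what separates it from the parental line cannot be told apart from what is particular to that derivative, and whether JQ1 was withdrawn before the DMSO treatment is not given in the sources used here. Nothing states that replicates were separate cultures, so a p-value covers no more than the spread between the 2 libraries of each group. Each sentence on a compound against DMSO uses the same 2 DMSO libraries of that line for JQ1 and for dBET6.

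JQ1 fills the acetyl-lysine pockets of the BET bromodomain proteins, which tether the transcription machinery to acetylated chromatin. dBET6 carries a ligand of the JQ1 type joined by a linker to a ligand of cereblon, which brings a ubiquitin ligase to the bound BET protein and leads to its degradation. Ribosomal protein genes are among the most highly expressed of all genes, and most of the proteins are needed in equal numbers, so their mRNAs are usually held at similar levels and move as a block. Their mRNAs begin with a terminal oligopyrimidine tract (TOP), a C at the first base followed by a run of C and T, through which the protein LARP1 and the kinase mTOR control their translation and stability.

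The start sites are shown first, because the TOP is the sequence these genes are best known to share and because the members that stood apart from the others below can be read against it. Each line gives the 10 bases before and the first 20 bases of the annotated transcript (RefSeq, GRCh38.p14), 5′ to 3′ on the strand of the gene, with the run of C and T that begins at the first transcribed base in capitals. These are the windows of RPS19 (chr19:41860245-41860274, plus strand), RPS6 (chr9:19380217-19380246, minus strand), RPL11 (chr1:23691796-23691825, plus strand), RPS27 (chr1:153990752-153990781, plus strand), RPL39 (chrX:119791611-119791640, minus strand), RPS24 (chr10:78033853-78033882, plus strand), RPS27L (chr15:63157458-63157487, minus strand) and RPS26 (chr12:56041908-56041937, plus strand).
RPS19: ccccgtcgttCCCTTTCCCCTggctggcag
RPS6: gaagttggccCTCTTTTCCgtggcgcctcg
RPL11: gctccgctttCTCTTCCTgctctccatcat
RPS27: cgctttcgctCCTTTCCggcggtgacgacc
RPL39: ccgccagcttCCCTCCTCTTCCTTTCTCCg
RPS24: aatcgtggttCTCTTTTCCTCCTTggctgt
RPS27L: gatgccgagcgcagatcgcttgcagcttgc
RPS26: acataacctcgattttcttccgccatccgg
The first 6 carried an uninterrupted run of 7 to 19 bases. RPS19 and RPL11 had 2 annotated starts each, and the start with the longest run is shown. The window of RPS27L had no such run at its annotated start, and that of RPS26 had a C and T run only some bases downstream of it.

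A promoter entry was found for 64 of the 82 members. A C at the annotated start with at least 4 further C or T bases was present in 46 of them (71.9%), against 5.14% of 27305 genes. A gene with several annotated starts was counted if any of them had the pattern. Within 10 bases of the annotated start the same pattern was found for 57 members (89.1%) and for 38.4% of all genes. The 7 matched members without it were RPL6, RPL10L, RPL17, RPL27, RPS4X, RPS27L and RPS29. In the 300-base windows around the start (both strands, no motif nested in another), the ETS motif CCGGAAG stood in 35.9% of the members and 12.2% of all genes, and the YY1 motif AAGATGGC in 9.38% and 3.52%. The GC box GGGCGG stood in 59.4% and 48.3%, the E-box CACGTG in 6.25% and 8.77%, and TATAAA in 9.38% and 14%.

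The second set of sequences belongs to RPS24, whose transcripts shifted with both compounds in both lines (described below). The main RPS24 mRNAs differ by very short exons spliced in near the stop codon and by the length of the last exon. The transcript RPS24-201 contains the lysine codon of a 3-base exon (GENCODE 29, GRCh38, chr10:78037439-78037441, plus strand, in the coding sequence). RPS24-205 contains that exon and an 18-base exon after it (chr10:78037965-78037982), of which 3 bases are coding. RPS24-202 contains neither and joins its preceding exon straight to a 22-base exon (chr10:78040204-78040225), which all 3 transcripts share. That exon is untranslated in the annotation apart from the stop codon of RPS24-201 and RPS24-202. The stop codon of RPS24-205 lies in its 18-base exon.
RPS24 exon of 3 bases: aag
RPS24 exon of 18 bases: aaatgaagtgtctagcag
RPS24 exon of 22 bases: tgagctggagattggatcacag

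The libraries held 24732177 to 40388589 estimated counts. VIM (2908 to 11067 FPKM) and CD44 (242 to 628 FPKM), both abundant in mesenchymal glioma cells, were high in every library, while the glial markers GFAP, NES, S100B, SOX2 and OLIG2 stayed between 0 and 20.1 FPKM, so the glial identity of the label rested on few markers. The defining markers PTPRC, CD3E, VWF and CDH5 of blood and endothelial cells lay between 0 and 0.238 FPKM. CD68, a lysosomal protein abundant in macrophages, was the one tested gene of the leukocyte list. It lay at 166 to 825 FPKM and rose with dBET6 by 1.02 in the parental and 2.09 in the resistant line relative to the bulk of the genes, and its part in the results was not tested. The 4 dBET6 libraries stood apart from the other 8: mitochondrially encoded mRNA took 3.02% to 3.75% of their counts against 1.40% to 2.59%, and a single RNA gene of the ribosomal DNA region, MIR3648, took 6.90% to 11.7% of their summed FPKM against 0.025% to 0.19%. The FPKM columns summed to 671000 and 685757 in parental DMSO and to 1738015 and 1711308 in parental dBET6. In resistant cells the sums were 649818 and 664753 with DMSO and 2293908 and 2298108 with dBET6. The JQ1 columns summed to 757817 to 812174. FPKM values given below are not corrected for these sums and are no second measure of a change. The part of these shifts in the results below was not tested, apart from the scalings given beside them. In bulk RNA a change in the share of a gene's mRNA cannot be told apart from a change in the total RNA of a cell.

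With either compound, and most with dBET6 in resistant cells, ribosomal protein mRNA took a larger part of the estimated counts than with DMSO, whereas against the FPKM of all genes the parental dBET6 share was lower. The 81 paired genes took 4.77% and 4.91% of all estimated counts in parental DMSO, 5.29% and 5.55% in parental JQ1 and 7.48% and 7.90% in parental dBET6. In resistant cells they took 5.29% and 5.41% with DMSO, 6.56% and 7.18% with JQ1 and 11.7% and 12.2% with dBET6. The libraries of no compound group overlapped those of DMSO in the same line. The share was 1.59 times that of DMSO with dBET6 in parental cells and 2.24 times in resistant cells, and 1.12 and 1.29 times with JQ1. With 2 libraries against 2 an exact permutation test (two-sided) cannot go below p = 0.333, so these shares carry no test. The size depended on the denominator. As a share of the FPKM of protein-coding genes the members went from 17.4% and 17.4% to 22.3% and 23.3% with dBET6 in parental cells and from 19.6% and 19.8% to 30.6% and 32.1% in resistant cells. As a share of the FPKM of all genes, which includes MIR3648, they went from 16.3% and 15.9% to 14.9% and 15.0% in parental cells, and from 18.1% and 18.0% to 22.0% and 24.1% in resistant cells.

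**Figure D1:**
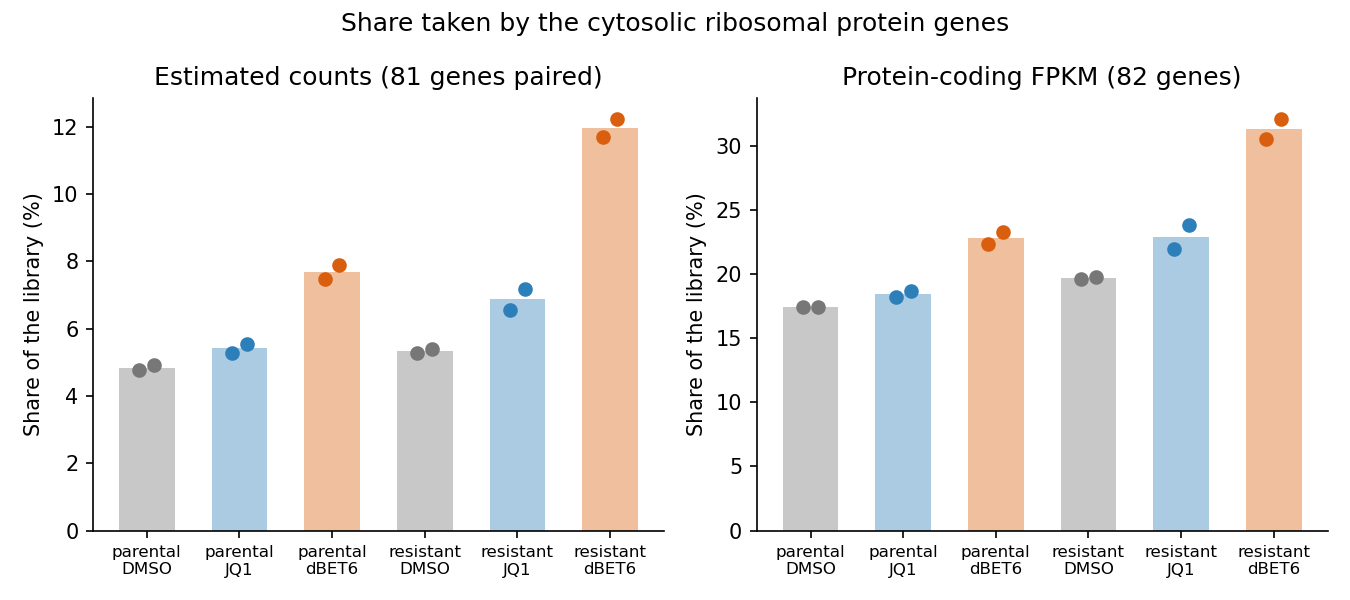
Share of each library taken by the ribosomal protein genes, as a percent of estimated counts (left, 81 genes) and of the FPKM of protein-coding genes (right, 82 genes); points are the 2 libraries of a group and bars their mean. The resistant dBET6 libraries are highest in both panels, at 11.7% and 12.2% of counts; as a share of the FPKM of all genes (not drawn) the parental dBET6 libraries lie below DMSO.

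Levels per length, in FPKM, differed widely among the members although most of the proteins are needed in equal numbers. RPS27 was highest with a mean of 13231 FPKM over the 12 libraries, followed by RPL37A (9658), RPS21 (9592), RPL41 (9055) and RPL35 (6796), all of them short mRNAs. At the low end stood RPL39L (12), the paralog of RPL39 known from testis and some tumours, RPS26 (10.8) and RPL3L (0.423), the muscle paralog of RPL3. RPS26 is an essential small subunit protein with near-identical copies elsewhere in the genome, so its low value is uncertain. The order of levels was similar in the 6 pairs of groups compared (each compound with DMSO, and the lines with DMSO or with dBET6), with Spearman correlations of 0.924 to 0.974 over 78 members, given as a description since libraries share the same genes and lengths. The spread of levels was wider with dBET6. The ratio of the 90th to the 10th percentile of FPKM was 5.31 to 8.40 in the dBET6 libraries and 4.03 to 5.32 in the others.

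With dBET6 nearly all ribosomal protein mRNAs of parental cells rose relative to the bulk of the genes, and turned lower when set against mitochondrially encoded mRNA. Of the 80 tested members, 76 rose and 2 fell against DMSO (edgeR's quasi-likelihood test, Benjamini-Hochberg adjusted p under 0.05), where 37.0% of all tested genes were called higher and 39.3% lower. The median log2 fold change of the members was 1.20 and that of all genes -0.01, and the interquartile range was 0.57 among the members against 2.33 among all genes. With scaling to mitochondrially encoded mRNA in place of TMM, which centres the bulk of the genes, the direction reversed, to 0 members higher and 49 lower with a median of -0.56. That scaling moved the median of all genes to -1.78. The members lay 1.22 above the median gene with each scaling, a distance that scaling can hardly alter. With a minimum mean of 10 CPM the distance was 1.66. With scaling to total counts 69 members were higher and 3 lower (median 0.57, all genes -0.65). The calls over all genes moved with the scaling too, as 48.5% of them were higher with TMM, 30.6% with total counts and 11.4% with mitochondrial scaling.

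Relative to the bulk of the genes the parts of the ribosome rose together. RPLP0, RPLP1 and RPLP2 form the acidic stalk that recruits elongation factors. RPLP0 stood at 2185 and 2069 FPKM with DMSO and 6779.8 and 5553 with dBET6 (log2 1.54 ± 0.10, standard error), and RPLP2 at 970.1 and 1072 against 3164 and 3673 (1.79 ± 0.11). RPS19, a small subunit protein mutated in Diamond-Blackfan anaemia, stood at 1719 and 1789.5 FPKM with DMSO and at 5880.1 and 5329.7 with dBET6 (1.74 ± 0.09, adjusted p = 2.4e-15, edgeR's quasi-likelihood test). In none of these 3 genes did the libraries of the groups overlap, which in CPM held for 86.7% of all tested genes. RPS9, a small subunit protein, rose by 1.74 ± 0.09. RPSA (a small subunit protein also known as the laminin receptor), RPS3 (an entry-channel protein) and RPS6 (the substrate of S6 kinase) rose by 1.48 ± 0.09, 1.36 ± 0.09 and 0.97 ± 0.09.

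RPL5 and RPL11 bind 5S rRNA and, when free of the ribosome, the ubiquitin ligase MDM2. Their increases were of unlike size, a difference that was not tested. RPL11 stood at 1329.9 and 1476 FPKM with DMSO and at 2914 and 3054 with dBET6. Relative to the bulk of the genes it rose by 1.17 ± 0.09, close to the median of the members. RPL5 went from 379 and 308 to 501 and 467 (0.51 ± 0.10), among the smallest increases. Under total-count scaling RPL5, RPS24 and RPL34 stood at -0.12, -0.13 and -0.03, and none of the 3 passed as lower. RPL10, which is placed last on the 60S subunit, rose by 1.27 ± 0.09, RPL22, a T-cell tumour suppressor, by 1.07 ± 0.10, and RPS14, whose loss marks the 5q- syndrome, by 0.93 ± 0.09. RPS27A, made as a fusion with ubiquitin, rose by 1.13 ± 0.10, RPL41, the shortest of the proteins, by 1.19 ± 0.09, RPL36A by 1.05 ± 0.10 and the X-linked RPS4X by 1.04 ± 0.09. The median was 1.34 over 32 small subunit genes and 1.14 over 48 large subunit genes.

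**Figure D2:**
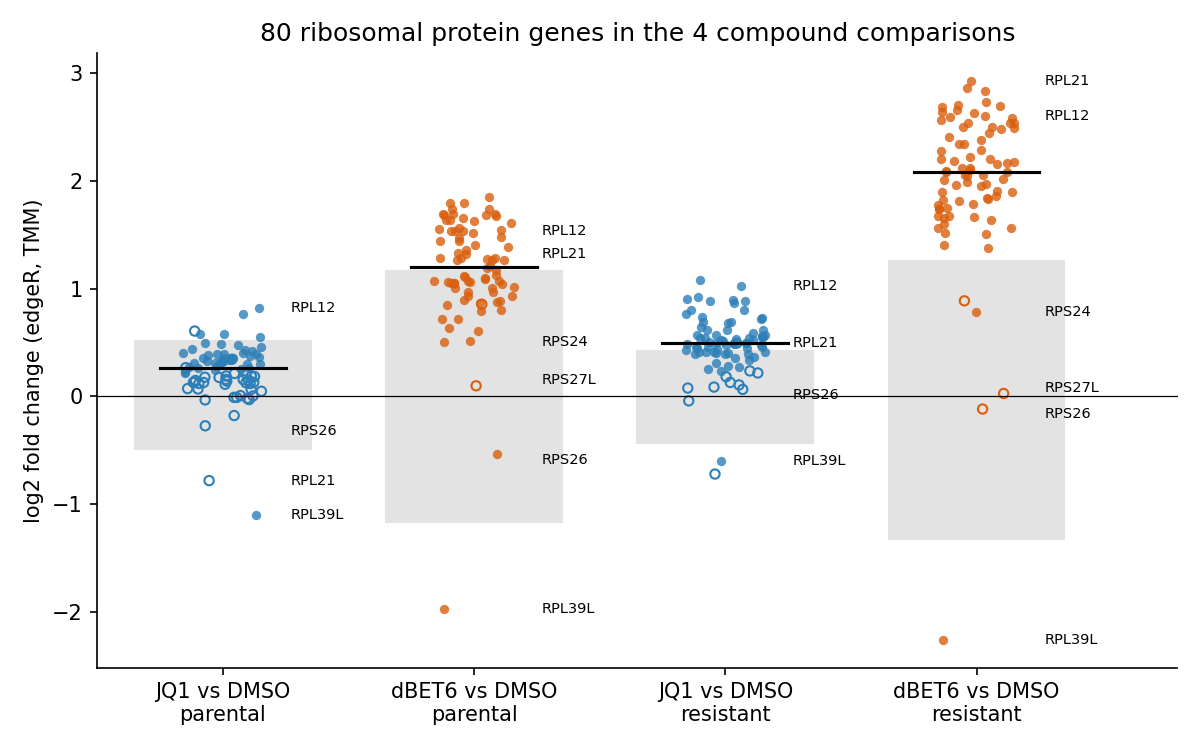
Log2 fold change (TMM scaling) of the 80 tested ribosomal protein genes in each compound comparison; filled points passed the test, open points did not, black lines are the members' medians (0.26, 1.20, 0.49 and 2.08) and grey boxes span the interquartile range of all 19093 genes. With dBET6 nearly all members form a narrow band above 0, a direction that reversed in parental cells with mitochondrial scaling (0 higher and 49 lower), and RPL39L lies below 0 in all 4.

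In resistant cells the same compound gave larger values, and here the members were near level with mitochondrially encoded mRNA. Against DMSO 76 members rose and 1 fell, where 35.7% of all genes were called higher and 39.5% lower. The median of the members was 2.08, a fold of 4.23, against -0.06 for all genes, and it fell to 0.02 (20 higher and 11 lower) with mitochondrial scaling, which moved the median gene to -2.12. The members stood 2.13 to 2.15 above the median gene with TMM, size factors, total counts and mitochondrial scaling, a distance that scaling can hardly alter. With a minimum mean of 10 CPM the distance was 2.64. Of all calls, 47.5% were higher with TMM, 22.5% with total counts and 8.94% with mitochondrial scaling.

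RPS19 went from 2325 and 2460.2 FPKM to 14002 and 15657 (2.64 ± 0.10), and RPLP0 from 2173 and 2132 to 11807 and 12676 (2.48 ± 0.10). RPL13A, which also takes part in the GAIT complex of translation control, rose from 1037 and 1092 to 6959.9 and 7120.2 (2.70 ± 0.09, adjusted p = 1.7e-19, edgeR's quasi-likelihood test). RPS27, the most abundant member, reached 29662 and 34663 FPKM from 8341 and 8910.5 (2.18 ± 0.10). In these 4 genes every dBET6 library lay far above both DMSO libraries. In CPM 87.1% of all tested genes had no overlap between these groups, in either direction. RPL8, at the peptidyl transferase centre, rose by 2.73 ± 0.10 and RPS29 by 2.86 ± 0.24. RPL21 had the largest value (2.93 ± 0.28) but is uncertain: it stood at 70.1 and 64.9 FPKM with DMSO and 500.5 and 446 with dBET6, below its own pseudogene RPL21P75 with a mean of 579 FPKM over all libraries.

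A few members lay outside the band. RPL39L fell with both compounds in both lines. It stood at 29.1 and 25.4 FPKM in parental DMSO, 12 and 12.4 with JQ1 and 6.80 and 6.30 with dBET6. In resistant cells it stood at 14.4 and 13.7 with DMSO, 8.35 and 9.59 with JQ1 and 2.79 and 2.90 with dBET6. The dBET6 libraries were the lowest of each line and the JQ1 libraries lay between, without overlap. Between dBET6 and DMSO, 86.7% (parental) and 87.1% (resistant) of all tested genes had no overlap in CPM. The log2 changes of RPL39L were -1.10 ± 0.13 (JQ1) and -1.98 ± 0.15 (dBET6) in the parental line, with -0.60 ± 0.14 and -2.26 ± 0.19 in the resistant line. They kept their sign with total-count and mitochondrial scaling. Its parent RPL39, whose protein lines the exit tunnel, went the other way relative to the bulk of the genes, from 2239 and 1624 FPKM to 3785 and 4012 with dBET6 in parental cells (1.21 ± 0.15) and from 2027 and 1958 to 6745 and 8234 in resistant cells (2.12 ± 0.15).

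RPS27L, a paralog of RPS27, stayed near its DMSO level relative to the bulk of the genes. Its levels were 167 and 139.8 FPKM in parental DMSO, 143 and 151 with dBET6, 182 and 182 in resistant DMSO, and 168 and 188 with dBET6. The 95% interval of its log2 change was -0.09 to 0.29 in parental and -0.16 to 0.21 in resistant cells, below the lower quartile of the members (0.97 and 1.77). With total-count scaling RPS27L fell by 0.54 and 1.05. RPS26 stood at 13 and 12.6 FPKM with DMSO and 8.44 and 8.65 with dBET6 in parental cells (-0.54 ± 0.15, adjusted p = 0.0018, edgeR's quasi-likelihood test), and did not pass in resistant cells (-0.12, 95% interval -0.42 to 0.19). RPS24, which is needed for 18S rRNA maturation, rose less than most others relative to the bulk of the genes, by 0.51 ± 0.09 and 0.78 ± 0.09. It turned below 0 in both lines with total-count and with mitochondrial scaling. With total counts it passed as lower in resistant cells. RPL3L rose by 1.80 ± 0.37 and 1.56 ± 0.39 but on only 8 to 36 counts per library.

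With JQ1 fewer members passed and the values were smaller, and nearly all calls were lost with mitochondrial scaling. In parental cells 42 members rose and 1 fell, where 22.8% of all genes were called higher and 26.1% lower (median 0.26, all genes 0.01). The interquartile range was 0.24 among the members and 1.00 among all genes. That count rested in part on single libraries, since it was 24 without the first parental DMSO library and 24 without the second parental JQ1 library. With mitochondrial scaling 1 was higher and 3 lower (median -0.03), and 29 were higher and 4 lower with total counts. In resistant cells 68 rose and 1 fell, where 20.8% and 23.1% of all genes were called (median 0.49, all genes 0.01), and with mitochondrial scaling 1 was higher and 5 lower (median -0.08). The share of calls that were higher went from 46.7% to 36.5% with total counts and 21.4% with mitochondrial scaling in parental cells, and from 47.4% to 28.3% and 6.67% in resistant cells. Relative to the median gene the members stood 0.24 to 0.26 higher in parental and 0.47 to 0.48 higher in resistant cells with each of these scalings. Scaling can hardly alter that distance, which was 0.30 and 0.48 with a minimum mean of 10 CPM.

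RPL12, a protein of the stalk base, had the largest JQ1 increase in parental cells, from 865 and 911 FPKM to 1499 and 1565 (0.82 ± 0.09). RPL28 followed, from 1402 and 1614 to 2616 and 2139.5 (0.76 ± 0.09), and then RPS29, which did not pass (0.61 ± 0.23, adjusted p = 0.068, edgeR's quasi-likelihood test). RPS19 had no detectable change in parental cells (0.00, 95% interval -0.19 to 0.19), although it was among the largest increases with dBET6. In resistant cells RPS29 (1.08 ± 0.23), RPL12 (1.02 ± 0.09), RPS20 (0.92 ± 0.10), RPL39 (0.90 ± 0.15) and RPL13A (0.89 ± 0.09) led. RPL21 (-0.78 ± 0.27), RPS26 (-0.27 ± 0.13), RPL6 (-0.18 ± 0.09) and RPL29 (-0.03 ± 0.09) had the lowest values after RPL39L in parental cells, and none of the 4 passed.

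At the same dose and time dBET6 gave more ribosomal protein mRNA than JQ1 relative to the bulk of the genes. In parental cells 76 members were higher and 1 lower with dBET6 than with JQ1, where 36.2% and 38.4% of all genes were called (median 0.93). With mitochondrial scaling this reversed to 1 higher and 52 lower. In resistant cells 76 were higher and 1 lower, where 35.4% and 38.8% of all genes were called (median 1.57), and with mitochondrial scaling 14 were higher and 7 lower. Of all calls 48.6% were higher in parental cells with TMM, 32.9% with total counts and 13.1% with mitochondrial scaling, and in resistant cells 47.8%, 26.2% and 14.3%. RPL21 and RPS19 led in both lines, by 2.10 ± 0.27 and 1.74 ± 0.09 in the parental line and by 2.43 ± 0.27 and 2.37 ± 0.10 in the resistant line. RPL39L was the member that was lower with dBET6 (-0.88 ± 0.16 and -1.66 ± 0.20). The difference did not pass for RPS27L (0.12, 95% interval -0.07 to 0.31, and 0.07, -0.12 to 0.26) or RPS26 (-0.26, -0.57 to 0.05, and -0.18, -0.49 to 0.13).

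Resistant cells answered dBET6 with a larger increase than parental cells for nearly every member. The difference between the lines was tested itself, as the resistant minus the parental change. For dBET6 it was positive for 74 members and negative for 0 (edgeR's quasi-likelihood test), where 13.7% of all genes were called higher and 14.2% lower. The median difference was 0.89 and that of all genes -0.05. Its interquartile range was 0.17 among the members against 1.00 among all genes. Counts differed with the scaling, at 60 higher and 2 lower with total counts (median 0.45) and 7 higher and 0 lower with mitochondrial scaling (median 0.59), and the direction did not flip. The distance to the median gene, which scaling can hardly alter, was 0.93 to 0.94 in each, and 0.89 with a minimum mean of 10 CPM. The share of calls that were higher went from 49.1% to 12.2% and 14.2%.

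RPL5 lay above the members' median: its change was 0.51 in parental and 1.51 in resistant cells, a difference of 1.00 ± 0.14 (adjusted p = 5.7e-06, edgeR's quasi-likelihood test). RPL11 differed by 0.84 ± 0.13, RPS19 by 0.90 ± 0.13, RPS6 by 0.92 ± 0.12 and RPL13A by 1.15 ± 0.12. RPL21 (1.61 ± 0.37) and RPS29 (1.25 ± 0.32) had the largest values with the widest errors. Not called were, among others, RPL39L (95% interval -0.81 to 0.25), RPL3L, RPS24 (0.28, 0.02 to 0.53, adjusted p = 0.099, edgeR's quasi-likelihood test), RPS26 and RPS27L (-0.34 to 0.20). Between the lines, whose libraries are not shared, the members' dBET6 changes correlated with a Pearson r of 0.94 and a Spearman rho of 0.88 across 80 genes (0.86 and 0.88 across all genes, which are not independent replicates), and 77 of 80 were larger in resistant cells.

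**Figure D3:**
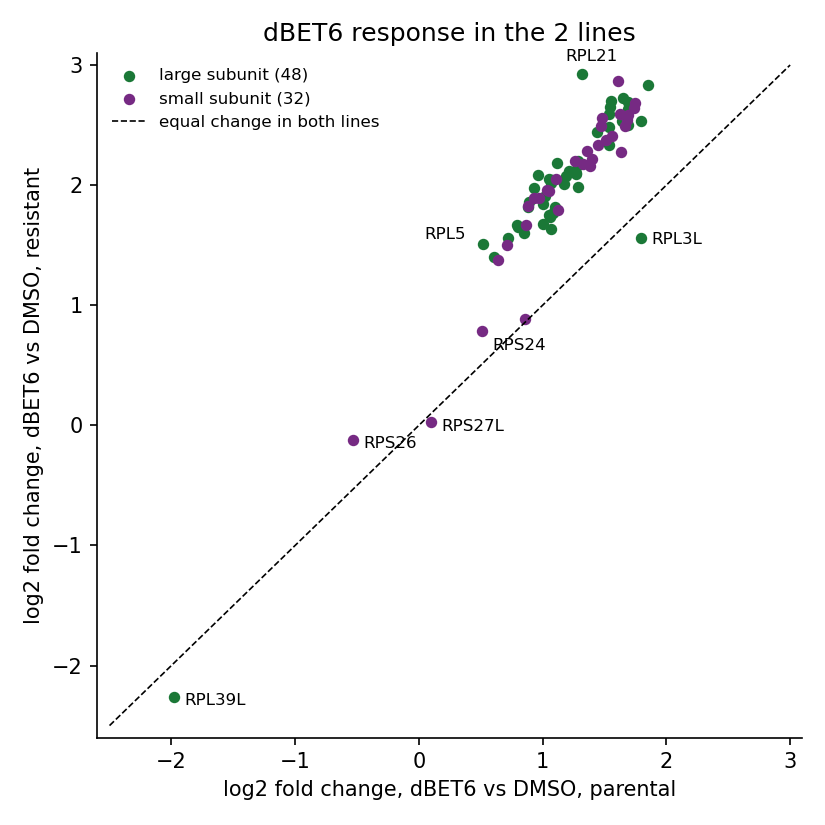
Log2 fold change with dBET6 (TMM scaling) in parental (x) and resistant (y) cells for 48 large and 32 small subunit genes; the dashed line marks equal change. The members run parallel to the line, about 0.89 above it, with RPL39L, RPS26, RPS27L, RPS24 and RPL3L near, on or below it; with mitochondrial scaling the parental values turn negative (median -0.56).

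For JQ1 the difference between the lines passed for 12 members, all positive: RPL3, RPL5, RPL7, RPL8, RPL13A, RPL14, RPL17, RPL27, RPL31, RPL35A, RPS9 and RPS27A. Of all genes 3.62% were called higher and 2.88% lower. The median was 0.24 (all genes 0.00), and 74 of 80 members had the larger value in resistant cells. With mitochondrial scaling the median turned to -0.04 and 1 member was higher, which was none of these 12. Higher calls were 55.8% of all calls with TMM, 39.1% with total counts and 17.3% with mitochondrial scaling. The count was fragile. It was 3 without the first parental DMSO library, 1 without the first parental JQ1 library, 2 without the first and 1 without the second resistant DMSO library, and 2 without the second resistant JQ1 library. RPL5 gave 379 and 308 FPKM in parental DMSO, 323 and 386 with JQ1, 319.6 and 304 in resistant DMSO and 477 and 502 with JQ1. Its JQ1 libraries thus overlapped DMSO in parental cells and lay above it in resistant cells, a difference of 0.62 ± 0.14 (adjusted p = 0.0068, edgeR's quasi-likelihood test). RPL13A differed by 0.60 ± 0.12 and RPL8 by 0.51 ± 0.13.

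In DMSO the median change of the members between the lines was 0.04 (all genes 0.00), while their share of the estimated counts was 1.11 times as large in resistant cells (5.29% and 5.41% against 4.77% and 4.91%, without overlap). Even so 18 were higher and 8 lower in resistant cells, where 17.4% and 21.2% of all genes were called. Without the first parental DMSO library the counts were 10 and 6, without the second resistant DMSO library 11 and 6, and with mitochondrial scaling 1 and 9. With total counts 25 were higher and 7 lower, and over all genes higher calls were 45.0% of calls with TMM, 53.6% with total counts and 19.4% with mitochondrial scaling. RPL37 differed most, at 691 and 663 FPKM in parental and 1385 and 1460.0 in resistant cells (1.09 ± 0.10). RPS3A, RPL34 and RPL9 were lower: RPS3A stood at 804 and 693 against 472 and 440.1 (-0.68 ± 0.10), RPL34 at 1207 and 1074 against 751 and 735 (-0.65 ± 0.11), and RPL9 at 809 and 795 against 542 and 523 (-0.61 ± 0.09). These 4 did not overlap between the lines and kept their sign with total-count and mitochondrial scaling. In CPM 70.5% of all tested genes had no overlap between the lines in DMSO.

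Those 3 lower genes are the members on chromosome 4. The median of the other 665 tested genes of that chromosome was -0.69, as low as that of the 3 members (-0.65). On chromosome 19 lay 12 members, of which 8 were higher (median 0.44), and its other genes (1330 tested) had a median of 0.33. RPS16 (2052 and 2191 against 3534 and 3526 FPKM, 0.74 ± 0.09), RPL28 (0.68 ± 0.09) and RPL36 (0.53 ± 0.12) are among them. RPL37 lies on chromosome 5, where the median was 0.13, but its 10 tested neighbours on each side had a median of 0.86. RPL39L on chromosome 3 (-0.95 ± 0.13) and RPL3 on chromosome 22 (-0.48 ± 0.09) had neighbours with medians of 0.00 and -0.05. Across the 80 members the Spearman correlation with the median of the 20 neighbours was 0.31 (Pearson 0.48), a description over genes that partly share neighbours. Gene copy number was not measured in these files, and its part was not tested.

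**Figure D4:**
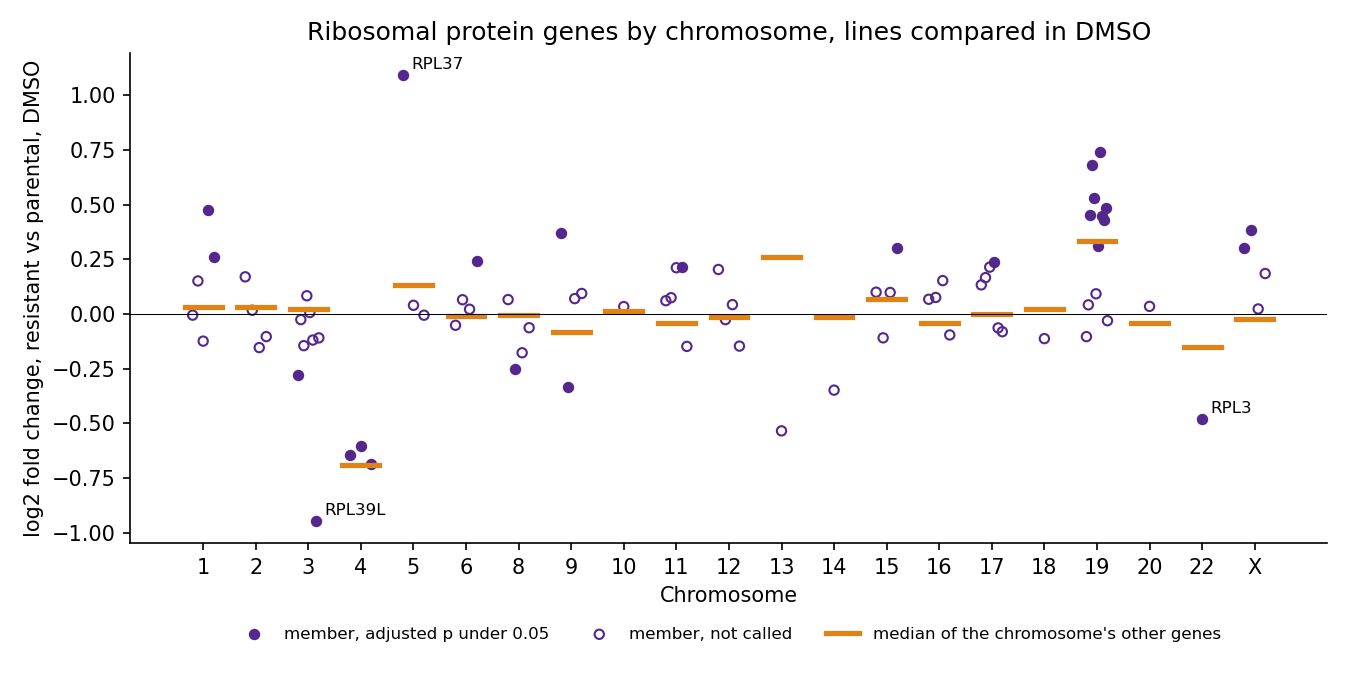
Log2 fold change of each ribosomal protein gene between the lines in DMSO (resistant against parental, TMM scaling), by chromosome; filled points passed the test and bars mark the median of the other tested genes of the chromosome. The 3 members on chromosome 4 lie at its low median of -0.69 and 8 of 12 on chromosome 19 passed above 0; with mitochondrial scaling 1 member was higher and 9 lower over all chromosomes.

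Among the members the dBET6 increase was larger in GC-rich transcripts. Over 4 classes of 20 genes with rising GC content, the parental medians were 1.01, 1.05, 1.28 and 1.66. The resistant medians were 1.76, 1.98, 2.13 and 2.54. The Spearman correlation with GC content was 0.68 and 0.63 over 80 members, and 0.35 and 0.11 for JQ1. Over all genes it was 0.24 and 0.28 for dBET6, with medians running from -0.70 in the lowest of 5 GC classes to 0.51 in the highest for parental cells, and from -0.95 to 0.63 for resistant cells. The members did not stand apart in GC content (median 49.7% against 49.6%). They were short (median 679 bases against 1851), and the 4163 tested genes under 1000 bases had medians of 0.79 and 0.81, which lay below the members' medians in both lines. The 12 members on chromosome 19 had medians of 1.68 and 2.56 against 1.09 and 2.0 for the other 68. The part of GC content or length in the changes was not tested.

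**Figure D5:**
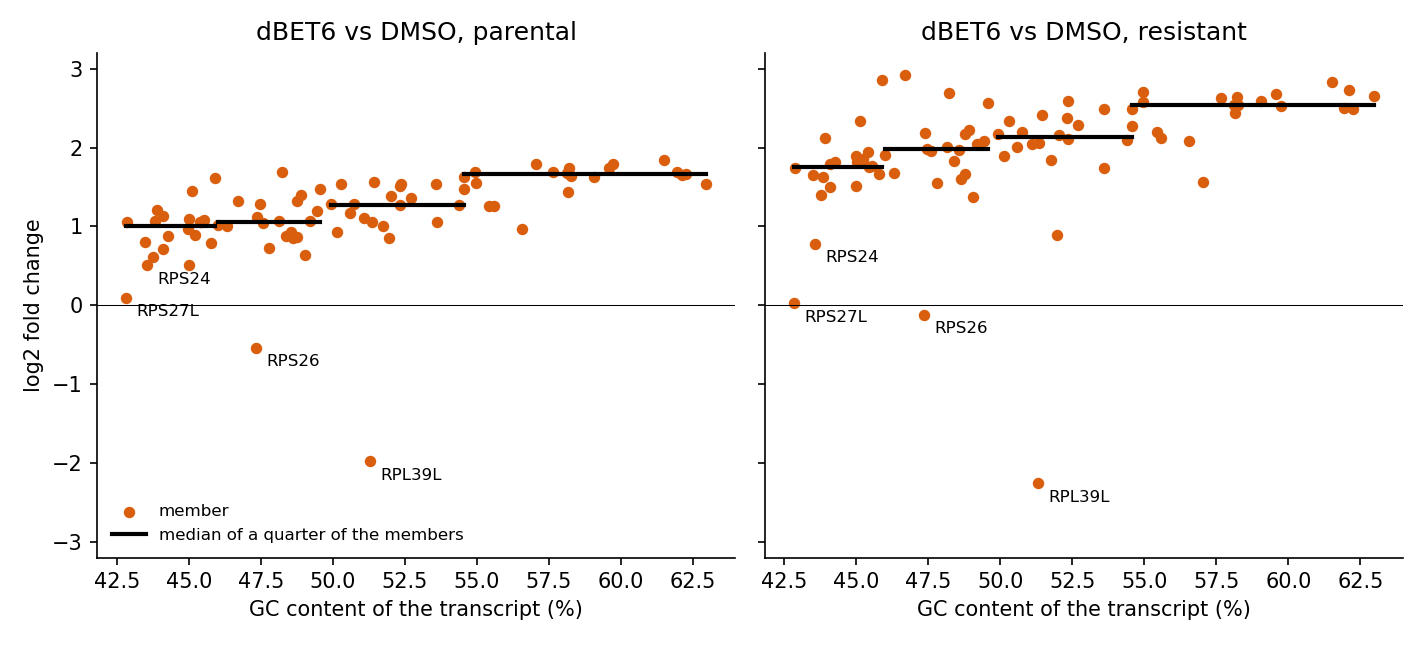
Log2 fold change with dBET6 (TMM scaling) against the GC content of the transcript for the 80 tested ribosomal protein genes in parental (left) and resistant (right) cells; bars are the medians of 4 classes of 20 genes. The medians rise from 1.01 to 1.66 and from 1.76 to 2.54; with mitochondrial scaling the parental median over all members was -0.56.

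Members with a TOP at the annotated start (46 tested) had a median dBET6 change of 1.28 in parental and 2.16 in resistant cells, and the 17 without had 1.05 and 1.96, with ranges that overlapped (0.51 to 1.79 against -0.54 to 1.67 in parental cells). For JQ1 the medians were 0.28 and 0.16 in parental and 0.49 and 0.47 in resistant cells. RPS29, one of the largest increases in resistant cells, has no TOP at its annotated start or within 10 bases of it, and RPS24, one of the smallest, has a run of 14 bases (shown above). RPS26, with no tract at its annotated start but one within 10 bases of it, was the matched member with values below 0 for dBET6. Its level is uncertain, and its value in resistant cells did not pass. No test compared the 2 sets.

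Transcripts of these genes annotated as non-coding (retained introns, nonsense-mediated decay targets and processed transcripts) held 8.65% to 10.1% of the members' summed TPM in every group, and retained introns 3.43% to 3.74%. Gene by gene they shifted. With dBET6 the non-coding share was lower than with DMSO in both lines, without overlap of libraries, for 39 of 78 members (50%) and higher for 7 (8.97%). Over all protein-coding genes with such transcripts the same pattern was seen for 13% (lower) and 25.4% (higher) of 9689 genes. RPL3, which is known to regulate its own splicing, went from 3.27% and 3.11% to 0.57% and 0.69% in parental cells and from 2.70% and 2.90% to 0.55% and 0.51% in resistant cells. RPL12, likewise known for autoregulated splicing, went from 2.95% and 3.48% to 0.71% and 0.85%, and from 2.51% and 2.43% to 0.40% and 0.33%. RPS27L went the other way, from 0.30% and 0.41% to 5.24% and 9.51% and from 0.83% and 0.91% to 6.39% and 7.59%. These shares are ratios within a gene and do not depend on the scaling between libraries, and the 3 genes were picked after their values were seen.

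Shifts between coding transcripts were counted in the same way. A coding transcript moved by over 10 percentage points in the same direction in both lines with dBET6, without overlap, in 8 of 79 members (10.1%) and in 35.1% of 11340 protein-coding genes. The 8 were RPL23A, RPL28, RPL35A, RPL38, RPLP1, RPS4X, RPS24 and RPS27L. The largest parental shift was that of RPL23A, where RPL23A-201 went from a group mean of 5.04% to 63.6% of the gene's TPM and RPL23A-202 from 72.9% to 22.1%. In resistant cells these went from 8.22% to 26.5% and from 69.0% to 58.7%. RPS24, chosen after its values were seen, shifted with both compounds. RPS24-201, with the 3-base exon printed above, made up 8.89% and 8.94% of the gene's TPM in parental DMSO, 23.5% and 25.1% with JQ1 and 24.7% and 24.5% with dBET6. In resistant cells it made up 19.4% and 20.4% with DMSO, 39.2% and 39.4% with JQ1 and 50.1% and 47.9% with dBET6. The transcript without that exon, RPS24-202, fell from 83.9% and 83.7% to 68.2% and 68.5% with dBET6 in parental cells and from 69.9% and 67.6% to 43.3% and 45.6% in resistant cells. Both compounds shifted the balance the same way, JQ1 to about the level of dBET6 in parental cells, and the resistant line had more of RPS24-201 before treatment. RPS24-205, which has the 18-base exon too, held 0.41% and 0.20% in parental DMSO and 4.34% and 5.18% in resistant DMSO. The last exon of RPS24-201 is also shorter than that of RPS24-202 in the annotation (83 against 102 bases), and the estimates rest on a short stretch of sequence.

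Of 7 ribosomal protein genes with other names, 4 rose and 1 fell with dBET6 in each line. Of all genes 37.0% (parental) and 35.7% (resistant) were called higher, and 39.3% and 39.5% lower. FAU, which makes RPS30 as a fusion with a ubiquitin-like protein, rose by 1.61 in parental and by 2.10 in resistant cells, inside the range of the members. GNB2L1 (RACK1) changed by 0.50 and 1.49, and RPL7L1, a nucleolar relative of RPL7, by -2.0 and -2.36. With mitochondrial scaling 0 of the 7 were higher and 5 lower in the parental line, against 1 and 5 in the resistant line.

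Translation factors and other mRNAs with a TOP mostly rose with dBET6 relative to the bulk of the genes. The shares of all genes called with dBET6 were 37.0% (parental) and 35.7% (resistant) higher, and 39.3% and 39.5% lower. Of 16, 14 rose and 2 fell with dBET6 in parental cells (median 0.80) and 15 rose and 0 fell in resistant cells (1.48), which became 0 higher and 14 lower, and 2 higher and 10 lower, with mitochondrial scaling. EEF2, which moves the ribosome along the mRNA, stood at 855 and 886 FPKM in parental DMSO and 3003 and 2497 with dBET6 (1.69), and at 1072 and 1071 in resistant DMSO and 6316 and 6328 with dBET6 (2.58). EEF1A1 rose by 1.07 and 1.93 and PABPC1 by 1.26 and 2.08. EIF4B changed by -1.21 and 0.29. Host genes of small nucleolar RNAs, which also start with a TOP, rose with dBET6 for 5 of 7 in parental cells (0 fell, median 0.71) and 5 of 7 in resistant cells (1 fell, 0.95), which became 0 higher and 6 lower, and 0 and 5, with mitochondrial scaling. With JQ1, 5 rose and 1 fell in parental cells (0.41) and 7 of 7 rose in resistant cells (1.21). For 7 of 7 the difference between the lines passed (median 0.84). Of all genes 22.8% (parental) and 20.8% (resistant) were called higher with JQ1, and 3.62% for the difference. GAS5 changed by 0.62 with JQ1 in parental and 1.58 in resistant cells, and SNHG1 by 0.41 and 1.54. With mitochondrial scaling 5 of the 7 were higher with JQ1 in resistant cells (median 0.63), and 0 passed for the difference between the lines (median 0.54).

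Most factors known to bind these promoters fell with dBET6. Of 9 promoter-binding factors 0 rose and 8 fell with dBET6 in parental cells, and 1 rose and 8 fell in resistant cells, where mitochondrial scaling gave 0 higher in either line. Of all genes 39.3% and 39.5% were called lower, and 37.0% and 35.7% higher. GABPA, an ETS factor, changed by -1.05 and -1.74 and SP1 by -1.36 and -2.57. MYC, which drives ribosome production in many tumours, stood at 30.9 and 30.5 FPKM in parental DMSO and 27.9 and 23.5 with dBET6 (-0.19), and at 24.6 and 23.2 in resistant DMSO and 100.1 and 102.9 with dBET6 (2.05). The difference between the lines was 2.24. LARP1, which binds the TOP, changed by -0.72 and -1.12, and MTOR by -0.67 and -1.38, within a list of 10 regulators of which 6 rose and 4 fell in parental and 5 rose and 4 fell in resistant cells (0 and 8, and 1 and 8, with mitochondrial scaling).

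Of all genes 37.0% (parental) and 35.7% (resistant) were called higher with dBET6, and 39.3% and 39.5% lower. In the list of the 5S RNP and the MDM2 arm 2 of 10 genes rose and 7 fell with dBET6 in each line. The 2 were MDM2 and CDKN1A, and 2 of 10 were also higher with mitochondrial scaling. MDM2 stood at 13.5 and 11 FPKM in parental DMSO, 15.0 and 19.9 with JQ1 and 964 and 1309 with dBET6 (log2 6.34), and in resistant cells at 16.7 and 16.2, 25.4 and 27.6, and 2692 and 2551 (7.28). CDKN1A, the p21 inhibitor of cyclin-dependent kinases, went from 63.3 and 67.8 to 4670.3 and 4327 FPKM with dBET6 in parental cells (5.85) and from 62.6 and 63.8 to 10792 and 9531 in resistant cells (6.76). HEATR3, which takes part in the nuclear import of RPL5, changed by -2.70 and -3.19.

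Genes of other large complexes are set beside the members by count and median alone, and no test compared them. Of 76 mitochondrial ribosomal protein genes 14 rose and 51 fell with dBET6 in parental cells (median -0.86) and 14 rose and 50 fell in resistant cells (-0.99). Of 38 proteasome subunit genes 8 rose and 19 fell (-0.35), and 9 rose and 22 fell (-0.92), beside 39.3% and 39.5% of all genes called lower. Both lists stayed lower with total-count and mitochondrial scaling. Of 85 nuclear genes of the respiratory chain 60 rose and 14 fell (0.81), and 61 rose and 16 fell (1.09), which mitochondrial scaling turned to 2 and 68, and 2 and 59. Of the 13 mitochondrially encoded mRNAs themselves 13 rose in parental cells (median 1.87) and 12 in resistant cells (2.15). Over all genes 37.0% and 35.7% were called higher.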

How the data were processed

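RNA of 12 libraries (6 groups of 2) was analysed. Transcript tables with estimated counts and TPM were deposited for each library, and the submitters' processing notes name kallisto, DESeq2 and the build hg19 without saying which step used which. A gene table of FPKM values was deposited by the authors for the whole series; its columns sum to different totals, and how the FPKM were scaled is not given in the sources used here. Transcripts were paired with the genes of that table through GENCODE 29, and 92.6% of the 196354 transcripts were paired. For each gene the estimated counts of its transcripts were added up and rounded to whole numbers.

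Groups were taken from the sample labels. Genes with enough counts (19093) were tested in R 4.3.3 with edgeR 4.0.16 (TMM, quasi-likelihood F-test, 1 fit over all 12 libraries, 6 residual degrees of freedom, Benjamini-Hochberg adjustment over all genes, threshold 0.05). DESeq2 1.42.0, limma 3.58.1 on log2(FPKM + 1), other scalings and filters, each library left out, and a replicate term were alternatives. The share of protein-coding FPKM was added after seeing the data. A few members and list genes are not reported here. The test was checked on simulated data in which few genes changed, up and down alike, so that check does not bear on the choice of scaling. Summed this way, 77 of 79 members matched the deposited FPKM within 1%, and RPL17 and RPS10 reached 0.979 and 0.955 of it.

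Members, context lists and the rule for named genes (roles, the 5 highest levels, the 5 largest and smallest changes per comparison, and calls against the median) were chosen with earlier results of these data known. Depth ranged from 24732177 to 40388589 estimated counts, and the biological coefficient of variation was 7.88%. Promoter windows came from RefSeq (GRCh38.p14), chromosomes and transcript types from GENCODE 29 (GRCh38), and no coordinate was moved between builds. Lists for other cell types were read as FPKM: besides the markers in the results, CD68 lay at 166 to 825, EPCAM, KRT18 and CDH1 lay at 0 to 2.96, and RBFOX3, SYT1 and SNAP25 at 0.0241 to 10.6.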

Additional observations from a re-analysis of the deposited data

Results flagged for a closer look

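Each result here is a response that differed between the resistant and the parental line by a test of the difference itself (edgeR's quasi-likelihood test, Benjamini-Hochberg adjusted over all genes). With dBET6 this held for 74 of 80 ribosomal protein genes, all with the larger change in resistant cells. Of all genes 13.7% were called higher and 14.2% lower, and with mitochondrial scaling 7 members were called higher. The differences were 1.61 for RPL21, 1.25 for RPS29, 1.15 for RPL13A, 1.00 for RPL5, 0.90 for RPS19 and 0.84 for RPL11 on the log2 scale. RPL21 and RPS29 carry the widest errors, and RPL21 shares sequence with an abundant pseudogene. With JQ1 the difference passed for 12 genes, among them RPL5 (0.62), RPL13A (0.60) and RPL8 (0.51). Of all genes 3.62% were called higher and 2.88% lower. With mitochondrial scaling 1 member was called higher, which was none of these 12. With 1 library left out at a time the count for JQ1 lay between 1 and 18.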

How the results depend on the processing

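Medians are log2 values, and counts are members higher and lower. In the order parental JQ1, parental dBET6, resistant JQ1, resistant dBET6, parental dBET6 against JQ1, resistant dBET6 against JQ1, lines in DMSO, JQ1 difference and dBET6 difference, mitochondrial scaling gave medians of -0.034, -0.56, -0.079, 0.017, -0.54, 0.078, -0.20, -0.041 and 0.59 and counts of 1 and 3, 0 and 49, 1 and 5, 20 and 11, 1 and 52, 14 and 7, 1 and 9, 1 and 0, and 7 and 0. Total counts moved the medians to 0.14, 0.57, 0.30, 1.00, 0.41 and 0.69 for the first 6 and 0.45 for the dBET6 difference. The cause was not tested. For parental dBET6, resistant dBET6, and dBET6 against JQ1 in parental and in resistant cells, size factors (edgeR or DESeq2) gave 1.33, 2.26, 1.06 and 1.77, no filter gave 1.06, 1.86, 0.81 and 1.36, and a minimum of 10 CPM gave 1.58, 2.49, 1.26 and 1.98. Fitting only the libraries compared gave 2.20 for resistant dBET6 and 1.66 for resistant dBET6 against JQ1. Unfiltered log2(FPKM + 1) gave 1.10 for parental dBET6.

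Tested against a fold of 1.5, the counts were 2 and 1 for parental JQ1, 8 and 0 for resistant JQ1, 1 and 1 for the lines in DMSO, 0 for the JQ1 difference and 33 for the dBET6 difference. Limma on log2(FPKM + 1) and on log2(FPKM + 0.1) gave 11 and 5 each for the lines in DMSO and 1 for the JQ1 difference. Without a filter it gave 14 and 1 for parental JQ1, 44 and 1 for resistant JQ1, 9 and 5 for the lines in DMSO and 0 for the JQ1 difference. DESeq2 gave 20 for the JQ1 difference.

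The log2 ratio of shares with summed FPKM was 0.054 for parental JQ1, -0.11 for parental dBET6, 0.22 for resistant JQ1 and 0.35 for resistant dBET6, and -0.16 and 0.13 for dBET6 against JQ1 in parental and resistant cells. With protein-coding FPKM (chosen after seeing the data) these were 0.081, 0.39, 0.22, 0.67, 0.31 and 0.45. The non-coding share with JQ1 in resistant cells differed from DMSO by -0.19 percentage points with counts in place of TPM.

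With parental dBET6, RPS24 (-0.13), RPL5 (-0.12) and RPL34 (-0.025) turned lower with total counts, and RPS24 (-1.25), RPL5 (-1.25), RPL11 (-0.60), RPS19 (-0.035), RPL37 (-0.47), RPL34 (-1.15) and RPL12 (-0.23) with mitochondrial scaling. With resistant dBET6, RPS24 turned to -0.29 with total counts, where it passed as lower. With mitochondrial scaling RPS24 (-1.28), RPL5 (-0.56), RPL11 (-0.06), RPL37 (-0.077) and RPL34 (-0.66) turned lower.

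With each library left out in turn, counts of higher members spanned 24 to 45 (parental JQ1), 51 to 71 (resistant JQ1), 10 to 18 (lines in DMSO), 1 to 18 (JQ1 difference) and 72 to 74 (dBET6 difference). Medians spanned 0.20 to 0.31, 0.38 to 0.58, 1.12 to 1.17 (parental dBET6), 1.98 to 2.08 (resistant dBET6), 0.84 to 0.96 and 1.44 to 1.65 (dBET6 against JQ1), 0.12 to 0.33 (JQ1 difference) and 0.82 to 0.95 (dBET6 difference). Log2 share ratios spanned 0.13 to 0.20 and 0.29 to 0.43 (JQ1), 0.63 to 0.71 and 1.13 to 1.20 (dBET6), and 0.74 to 0.87 (resistant dBET6 against JQ1). Interquartile ranges spanned 0.19 to 0.37 (JQ1 difference), 0.22 to 0.33 (parental JQ1) and 0.14 to 0.27 (dBET6 difference). Where a left-out library leaves 1 in a group, that library is assumed to vary like the others. Each of these fits also chose its tested genes and its TMM scaling anew, so the ranges include that effect. The parental dBET6 median with all libraries (1.20) lay above its range.

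Replicate numbers did not pair the libraries, since the deviations of libraries with the same number correlated between -0.058 and 0.061 over 15 pairs of groups. A fit with the replicate block gave 69 higher and 1 lower for resistant JQ1 and 17 and 7 for the lines in DMSO, and no count moved by over 1.5 times. With 2 libraries per group and 6 residual degrees of freedom, small differences between members could not be resolved. Counting error weighs most for RPL10L, RPL3L (8.1 to 35.9 counts per library), RPL39L (down to 21 counts) and RPS26 (down to 88.7 counts).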

Other observations

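Processed copies of ribosomal protein genes are frequent in the genome, and 843 pseudogenes named after a member were in the deposited table. The 839 that could be paired took 0.016% to 0.039% of the estimated counts of a library. RPL21P75 had the highest mean level, 579 FPKM, above that of its parent RPL21 at 168 FPKM. RPS2P46 and RPS2P5 stood at 276 and 260 FPKM. RPL41P1 ranged from 0 to 2074 FPKM between libraries.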
